A study of Mus musculus with 6 samples.

Results

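Aminoacyl-tRNA synthetases, the enzymes that join amino acids to transfer RNAs, and the genes that cells switch on when amino acids run short were followed in single cells of the mouse posterior eye after tropicamide or saline drops. The group was drawn up by name as 41 symbols, with the tropicamide against saline contrast in rods already known, and 40 of them were among the 33696 genes of the files. The symbol Wars was absent. The 40 genes were 19 cytosolic synthetases, 7 enzymes of amino acid and one-carbon synthesis, 4 amino acid transporters, 6 transcription factors and 4 other stress genes. Because the members were chosen with the treatment contrast in view, their differences between the groups are given here as a description, and the counts of members past a threshold support nothing by themselves. The tryptophan enzyme is listed in the files as Wars1 and is given once below, outside the counts.

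The study treated 2 groups of 12 mice and sequenced the right eyes, with the eyes of 4 mice pooled into each library, so that each group had 3 pools. Tropicamide, a muscarinic antagonist that relaxes the ciliary muscle and widens the pupil, was given as 6 drops at intervals of 10 min, and the eyes were taken after a further 1 h. The saline group, in which the labels call the muscle contracted, received drops at the same interval, and the number of drops and the wait are not stated for it. The tissue was the back of the eye (sclera, choroid and retina) after removal of the lens, cornea and iris with ciliary body. The labels name no strain, age, sex or genotype, and an extraction text that describes bone was not used. Nothing is said of how the mice were spread over litters or days, so the spread between pools is the spread between these pooled samples.

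Most synthetases charge the tRNAs of 1 amino acid, and the charged tRNAs feed the ribosome. When uncharged tRNAs accumulate or unfolded proteins collect in the endoplasmic reticulum, kinases phosphorylate the initiation factor eIF2, translation as a whole falls, and the mRNA of the transcription factor ATF4 is translated more. ATF4 then raises many synthetases, enzymes that make asparagine, serine and proline, amino acid transporters and further stress factors such as CHOP (gene Ddit3). Photoreceptors renew their outer segments every day and make protein at a high rate.

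ATF4 binds DNA as a dimer with C/EBP proteins, at sites whose core can be written TGATGNAA (TTNCATCA on the other strand). RefSeq promoters (build GRCm38.p6, 250 bases before to 50 after the start) were found for 33 of the 40 members, and the core was searched on both strands of these 300 bases. It was present for 13 of the 33 genes (39.4%) and for 1219 of all 27025 genes in the table (4.51%). Many members were listed because they are known ATF4 targets, so this share is not independent of the choice of members. Of the 15 members with a promoter that were lower in rods after tropicamide 9 held the core, and of the other 18 members 4 did. This split rests on the contrast that was known when the members were chosen, and nothing is read from it. The share among all genes lower in rods was not computed. The core lay before the start in Asns (first base 23 before it), Gars (30), Aars (112), Atf3 (110), Chac1 (193), Tars (15), Slc7a11 (66 and 47), Nupr1 (110) and Vldlr (200), and it overlapped or followed the start in Slc1a4, Yars, Iars, Trib3 and, as a further match, Aars. The variant CGATGNAA was also searched and was found in Yars alone of the 33 (232 of all 27025 genes, 0.858%). A match is a description of these letters and not a bound site.

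The 250 bases before the start of 6 members are shown 5′ to 3′ on the strand of the gene, with the core in capitals. They were picked by the match: they are the members named by rule in rods whose core lay wholly before the start. Asns (chr6:7693210-7693459, minus strand), Gars (chr6:55037751-55038000, plus strand), Aars (chr8:111033592-111033841, plus strand) and Atf3 (chr1:191183334-191183583, minus strand) were lower in rods, Chac1 (chr2:119350992-119351241, plus strand) was lower in corneal cells, and Nupr1 (chr7:126625471-126625720, minus strand) was higher in rods.
Asns: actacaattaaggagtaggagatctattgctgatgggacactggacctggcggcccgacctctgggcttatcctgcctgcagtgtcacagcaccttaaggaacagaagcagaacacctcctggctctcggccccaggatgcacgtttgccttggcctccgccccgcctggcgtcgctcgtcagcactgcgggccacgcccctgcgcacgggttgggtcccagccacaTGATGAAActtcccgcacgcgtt
Gars: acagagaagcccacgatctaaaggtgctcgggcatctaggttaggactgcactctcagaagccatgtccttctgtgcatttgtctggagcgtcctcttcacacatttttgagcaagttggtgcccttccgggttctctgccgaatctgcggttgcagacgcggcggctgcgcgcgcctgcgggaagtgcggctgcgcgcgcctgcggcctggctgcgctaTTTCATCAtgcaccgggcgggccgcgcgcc
Aars: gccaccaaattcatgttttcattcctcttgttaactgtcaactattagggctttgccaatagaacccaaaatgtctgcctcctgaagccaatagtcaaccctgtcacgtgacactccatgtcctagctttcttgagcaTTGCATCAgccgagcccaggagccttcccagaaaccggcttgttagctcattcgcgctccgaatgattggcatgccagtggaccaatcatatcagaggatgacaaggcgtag
Atf3: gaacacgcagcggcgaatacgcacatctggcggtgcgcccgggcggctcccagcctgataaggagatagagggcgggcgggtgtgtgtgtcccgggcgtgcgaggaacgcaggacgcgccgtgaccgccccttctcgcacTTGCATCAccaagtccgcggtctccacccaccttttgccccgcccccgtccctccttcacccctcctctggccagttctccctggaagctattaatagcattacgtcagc
Chac1: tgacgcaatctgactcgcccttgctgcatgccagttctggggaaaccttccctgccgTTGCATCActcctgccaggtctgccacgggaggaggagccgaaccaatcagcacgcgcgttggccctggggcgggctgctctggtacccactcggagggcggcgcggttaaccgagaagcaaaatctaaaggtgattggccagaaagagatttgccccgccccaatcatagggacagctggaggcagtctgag
Nupr1: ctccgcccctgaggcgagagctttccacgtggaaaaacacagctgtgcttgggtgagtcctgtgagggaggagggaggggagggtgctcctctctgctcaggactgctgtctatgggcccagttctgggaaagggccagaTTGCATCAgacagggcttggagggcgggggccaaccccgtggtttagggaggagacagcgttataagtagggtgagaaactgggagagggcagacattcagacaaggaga

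The 6 libraries held 9472 to 13518 barcodes and 30761887 to 49477707 UMIs (unique molecular identifiers, tags that count captured transcripts once), and 60096 cells were kept. Pairs of libraries shared 22 to 64 barcodes. Rod-like cells, called rods below, numbered 50433 (83.9% of cells), and all 11 rod markers were detected in them, at a sum of 32680 to 33845 CPM after tropicamide and 30494 to 31817 CPM after saline (UMIs of a gene scaled to the same total in every library and class; for single members in the treatment contrast the totals carry TMM normalization factors). Of these markers 5 lay above in every tropicamide pool and 0 below, and their part in the members' values was not tested. Rods of the tropicamide pools held a median of 1998 to 2050 UMIs and those of the saline pools 2133 to 2273.5. Free RNA was not removed. The members were left out of the genes used for clustering. Within a class, fewer transcripts per cell and fewer cells that use a gene cannot be told apart in summed counts.

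In rods, 19 of the 39 members that could be tested were lower after tropicamide and 3 were higher, at an edgeR adjusted p under 0.05. Of all 16418 genes tested, 5% were lower and 5.86% higher, and nothing is read from the members' count because the list was drawn up from this contrast. The median log2 fold change of the 39 was -0.24, against -0.0038 over all genes. Every tropicamide pool lay below every saline pool for 25 of the 40 members and above for 4, where 16.2% of all genes lay below and 15.6% above. Chac1, a glutathione-degrading enzyme, had 41 UMIs in all rods and was not tested there.

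Of the cytosolic synthetases in rods, 11 of 19 were lower, none was higher, and in 16 of 19 every tropicamide pool lay below every saline pool. Without an adjustment over genes, none of the synthetases was higher at p under 0.05 either. Summed over the 19 genes, the level was 952, 966 and 955 CPM after tropicamide and 1248, 1295 and 1206 CPM after saline, so that the pools of the groups lay well apart. Yars, which charges tyrosine, was at 54.97, 53.3 and 54.9 CPM in the 3 tropicamide pools and 98.9, 115 and 92.9 CPM in the 3 saline pools. Its log2 fold change was -0.91 ± 0.07 (SE), and the 3 tropicamide pools lay close together, far below the lowest saline pool. Cars, for cysteine, was at 36.6, 39.9 and 36.3 CPM after tropicamide and 67.3, 70.5 and 61.5 CPM after saline, a log2 fold change of -0.82 ± 0.07. Iars, for isoleucine, was at 51.7, 53.4 and 55.3 CPM after tropicamide and 89.4, 95.8 and 79.8 CPM after saline (-0.72 ± 0.07). In both genes the lowest saline pool was saline 3, which still lay above all tropicamide pools.

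Mars1, the methionine enzyme, was at 21.9, 23.96 and 24.3 CPM after tropicamide and 37.3, 36.6 and 30.7 CPM after saline, a log2 fold change of -0.57 ± 0.08. Aars, the alanine enzyme with the core printed above, was at 91.98, 94.5 and 95.9 CPM after tropicamide and 144, 144 and 125 CPM after saline (-0.55 ± 0.06). Gars, the glycine enzyme, was at 60.03, 65.1 and 66.9 CPM after tropicamide and 88.3, 96.8 and 83.3 CPM after saline (-0.48 ± 0.07). For these 3 genes the spread among tropicamide pools was smaller than the gap to the lowest saline pool. Lars, the leucine enzyme, was at 44.6, 50.2 and 52.2 CPM after tropicamide and 63.4, 67.3 and 58.5 CPM after saline, with the smallest change of the named synthetases (-0.36 ± 0.07) and a narrow gap between tropicamide 3 and saline 3. Hars, Nars, Sars and Tars, for histidine, asparagine, serine and threonine, were also lower, with log2 fold changes of -0.23 to -0.28.

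The other 8 synthetases did not pass, with log2 fold changes of -0.27 (Kars, lysine) to 0.08 (Vars, valine). Dars, Eprs, Farsa, Farsb and Kars had all tropicamide pools below all saline pools, and Qars, Rars and Vars had overlapping pools. The synthetases for glutamine, arginine and valine thus had log2 fold changes of 0.01, -0.07 and 0.08. Wars1, the tryptophan enzyme, was at 32.5, 32.3 and 31.997 CPM after tropicamide and 30.5, 37.4 and 38.1 CPM after saline, with overlapping pools.

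Per cell, the 11 synthetases called lower are given as a description, since their choice from the same rods and contrast fixes the direction. With each rod thinned to 1000 UMIs, which left out 1119 to 1836 shallower rods per pool, these 11 together gave a mean of 0.590, 0.613 and 0.612 UMIs per rod after tropicamide and 0.853, 0.913 and 0.809 after saline. At least 1 of these UMIs was found in 43.2%, 44.1% and 43.6% of thinned rods after tropicamide and 54.0%, 56.2% and 52.3% after saline. Without thinning the shares were 63.5%, 64.7% and 62.9% after tropicamide and 72.01%, 74.9% and 73.8% after saline. A Yars UMI was present in 9.57% to 10.3% of all rods after tropicamide and 16.8% to 19.5% after saline, and in 5.03% to 5.27% and 8.88% to 10.3% of the thinned rods. Every cell needs this enzyme, so no class lacking it gives a background share.

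**Figure D1:**
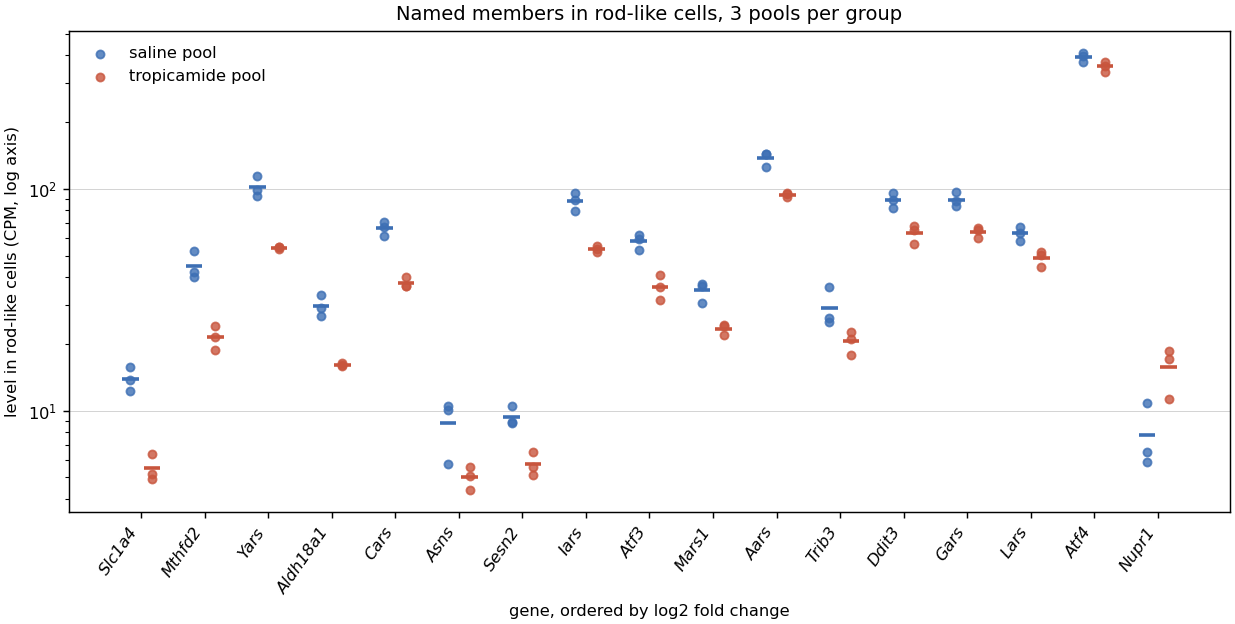
Level (CPM, log axis) in rod-like cells of the members named by rule, with 1 point per pool (3 saline, blue; 3 tropicamide, red) and bars at the group means. The tropicamide points lie below the saline points for 15 of the 17 genes, overlap them for Atf4 and lie above them for Nupr1.

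Among the enzymes, 3 of 7 were lower and 1 was higher. Mthfd2, the mitochondrial folate enzyme that supplies one-carbon units, was at 18.7, 24.1 and 21.5 CPM after tropicamide and 42.2, 52.6 and 39.9 CPM after saline, a log2 fold change of -1.06 ± 0.11. Aldh18a1, which starts proline synthesis, was at 16.005, 15.9 and 16.3 CPM after tropicamide and 29.03, 33.1 and 26.7 CPM after saline (-0.88 ± 0.09), and its tropicamide pools differed from each other by far less than from saline. Asns, which makes asparagine, was at 4.39, 5.54 and 5.05 CPM after tropicamide and 10.03, 10.5 and 5.77 CPM after saline (-0.80 ± 0.21). Saline 3 lay just above the highest tropicamide pool for Asns, and the call was lost without any 1 library except saline 3. Psph and Shmt2, of serine and glycine synthesis, had log2 fold changes of 0.04 and 0.06 with overlapping pools, and Psat1 one of -0.63, which did not pass.

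Slc1a4, a carrier of alanine, serine and cysteine, had the largest fall among the members tested in rods: 5.20, 6.34 and 4.90 CPM in the 3 tropicamide pools and 13.8, 15.8 and 12.2 CPM in the 3 saline pools (-1.34 ± 0.14 on the log2 scale). Even the highest tropicamide pool was far below the lowest saline pool. The other 3 transporters did not pass. Slc7a5, the light chain of the leucine carrier, had a log2 fold change of -0.19 ± 0.08, its heavy chain Slc3a2 one of 0.20 ± 0.07, and the cystine carrier Slc7a11 one of 0.39 ± 0.38 at under 2 CPM in every pool.

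The transcription factors did not move together. Atf4 itself was at 336, 358 and 375 CPM after tropicamide and 373, 397 and 409.7 CPM after saline. Its log2 fold change of -0.14 ± 0.05 did not pass, and the highest tropicamide pool was just above the lowest saline pool. Of the 17 settings run, Atf4 passed in 1, the largest rod cluster alone. Atf3, an early stress factor, was at 31.6, 40.8 and 35.96 CPM after tropicamide and 53.3, 59.3 and 62.2 CPM after saline (-0.68 ± 0.09). Ddit3 was at 56.7, 67.99 and 65.2 CPM after tropicamide and 82.2, 88.7 and 95.6 CPM after saline (-0.49 ± 0.08). For both, every tropicamide pool lay below every saline pool. The symbol Ddit3 stands for 2 gene identifiers in the files; the value is that of ENSMUSG00000025408, and the other had no UMI. Atf5 (0.27 ± 0.17) and Cebpb (0.62 ± 0.19) did not pass.

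Trib3, a pseudokinase induced by ATF4 and CHOP, was at 17.9, 22.7 and 21.1 CPM after tropicamide and 26.3, 35.98 and 25.2 CPM after saline (-0.50 ± 0.13). Sesn2, a leucine sensor that restrains mTORC1, was at 6.48, 5.59 and 5.10 CPM after tropicamide and 8.91, 10.5 and 8.80 CPM after saline (-0.72 ± 0.14). Both had separate groups, but Trib3 lost its call without any 1 of the tropicamide pools or saline replicate 2. Sesn2 lost its call without tropicamide replicate 2 and in 2 subsets of rods given below. Chac1 was at 0.270, 0.0947 and 0.0495 CPM after tropicamide and 0.236, 0.920 and 0.607 CPM after saline, at most 18 UMIs in any pool, and no fold is given for it in rods.

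**Figure D2:**
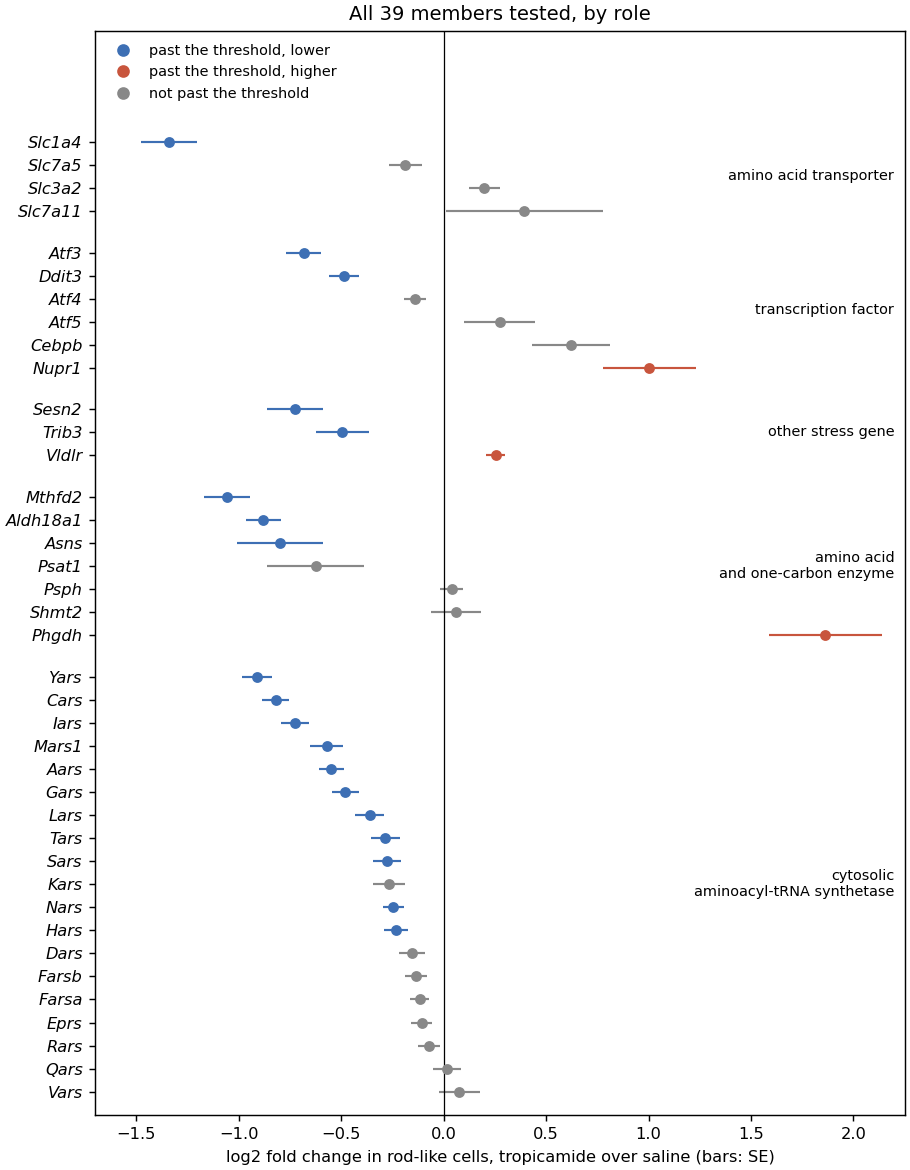
Log2 fold change in rod-like cells (tropicamide over saline, bars are SE) of the 39 members tested, grouped by role and coloured by whether the edgeR threshold was passed. Of the synthetases 17 of 19 lie left of 0, while transporters and transcription factors lie on both sides.

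The 3 members that were higher in rods are Nupr1, Phgdh and Vldlr. Nupr1, a small stress-induced chromatin protein, was at 18.6, 17.1 and 11.2 CPM after tropicamide and 6.49, 5.88 and 10.8 CPM after saline (1.00 ± 0.23), and saline 3 nearly reached tropicamide 3. Phgdh, the first enzyme of serine synthesis, was at 1.96, 2.56 and 2.67 CPM after tropicamide and 0.826, 0.511 and 0.658 CPM after saline (1.86 ± 0.27). Vldlr, a lipoprotein receptor, was at 226, 238 and 231 CPM after tropicamide and 195, 194 and 193 CPM after saline (0.25 ± 0.04), and the 3 saline pools lay close together. Phgdh and Vldlr fall outside the naming rule and were picked after their values were seen.

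Summed markers of some other cell types were higher in rods of every tropicamide pool. Those of others overlapped, among them endothelial, pericyte, smooth muscle and amacrine markers. Of all genes tested in rods, 15.6% lay above in every tropicamide pool. Of the 11 markers of retinal pigment epithelium, all detected in rods, 8 lay above in every tropicamide pool, and their sum was 239 to 460 CPM after tropicamide and 69.4 to 128 CPM after saline. In retinal pigment epithelium-like cells themselves the sum was 174210 to 198308 CPM, and Phgdh was at 538 to 828 CPM. The 11 Müller glia markers, 4 of them above in every tropicamide pool, summed to 182 to 227 CPM and 94.5 to 149.5 CPM, and the 9 melanocyte markers, 6 of them above, to 40.2 to 53.6 CPM and 24.3 to 35.5 CPM. The 10 fibroblast markers, 2 of them above in every tropicamide pool, had overlapping sums of 369 to 530 CPM and 179 to 382 CPM. Nupr1 was at 826 ± 76.6 CPM in fibroblast-like cells (SD, n = 6 libraries). The 7 red blood cell markers summed to 52.5 to 1848 CPM and 12.5 to 30.02 CPM in rods. The 10 markers of corneal or conjunctival epithelium had overlapping sums, at 53.0 to 83.5 and 37.8 to 99.9 CPM. Of these 10, Krt15 and Krt4 lay below in every tropicamide pool and 0 lay above, where 16.2% of all genes lay below. The part of all these transcripts in the values of Nupr1, Phgdh and Cebpb was not tested.

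The rods fell into 10 clusters, and the 6 with at least 200 cells in every library (A0 to A5) differed in their shares: A1 held 20.01% to 27.3% of rods after tropicamide and 10.97% to 16.4% after saline, and A2 held 11.9% to 14.2% and 19.7% to 22.1%. Within each of the 6 clusters the median log2 ratio of the 39 members was between -0.25 and -0.38, and that of all genes between -0.0078 and 0.0037. For 9 members every tropicamide pool lay below every saline pool in all 6 clusters: Slc1a4, Mthfd2, Yars, Aldh18a1, Cars, Iars, Atf3, Aars and Ddit3. Of the 16418 genes tested in rods, 48 (0.292%) did so. The 9 were picked after their values were seen, and nothing is read from their count. Atf4, whose pools overlapped over all rods, lay below in 5 of the 6, with log2 ratios of -0.22 to -0.30, and overlapped in A4 (-0.17). Nupr1 lay above in 5 of the 6.

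**Figure D3:**
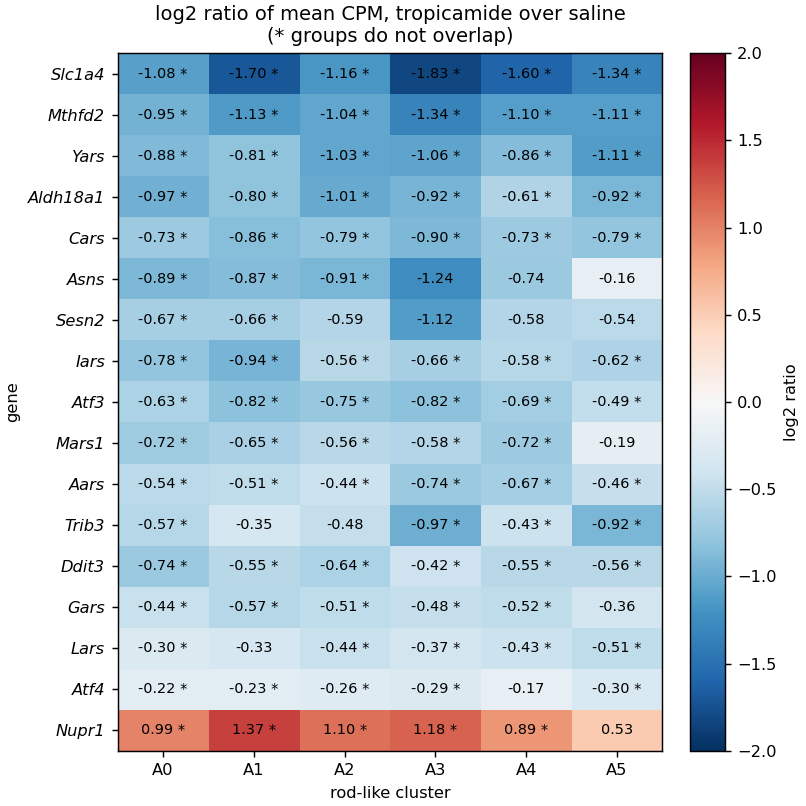
Log2 ratio of the mean CPM (tropicamide over saline) of each named member in rod-like clusters A0 to A5, with an asterisk where the 3 pools of one group all lie beyond the 3 of the other. The ratios are below 0 in all 6 clusters for every gene shown except Nupr1.

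Of the 16 members called and named in rods, Slc1a4, Mthfd2, Yars, Aldh18a1, Cars, Iars, Atf3, Mars1, Aars, Ddit3 and Gars kept their call without each library in turn. The count of lower members was 12 without tropicamide replicate 2 and 14 to 18 without each of the others, where 0.927% of all genes were lower without tropicamide replicate 2 and 2.39% to 6.72% without each of the others. Lars lost its call without tropicamide replicate 2, and Nupr1 without tropicamide replicate 1 or 2 or saline replicate 1 or 2. Lars and Sesn2 also lost their calls in the largest rod cluster alone. In rods with at least 1% mitochondrial UMIs Lars, Sesn2, Asns and Nupr1 lost theirs. When rods were sampled so that all libraries had equal UMI distributions, 18 members were lower (4.46% of all genes), and in the largest rod cluster alone 17 (2.46%). In rods with under 1% mitochondrial UMIs 19 were lower (5.74% of all genes), and in rods with at least 1% 13 (1.17%).

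Other genes of the pathway, listed without regard to how these moved but with results of the data known, were read from the same fit. Of 70 genes tested in 6 lists, 15 were lower and 1 was higher in rods, beside 5% and 5.86% of all genes. The lower count was 9 without tropicamide replicate 1 (2.39% of all genes) and 5 without tropicamide replicate 2 (0.927%). In the largest rod cluster it was 8 (2.46%). The list of further ATF4 targets had 6 of 15 lower, none higher and a median of -0.28. Slc38a2, a glutamine and alanine carrier, was at 89.5, 99.4 and 93.6 CPM after tropicamide and 138, 137 and 125 CPM after saline (-0.50 ± 0.06, edgeR adjusted p = 0.00091). Mthfd1l, a mitochondrial folate enzyme, was at 8.71, 9.89 and 9.51 CPM after tropicamide and 13.8, 14.4 and 14.5 CPM after saline (-0.60 ± 0.10, edgeR adjusted p = 0.00447). Slc7a1, the carrier of arginine and lysine, was at 103, 103 and 118 CPM after tropicamide and 129, 146 and 141 CPM after saline (-0.36 ± 0.07, edgeR adjusted p = 0.0087). In these 3 genes the groups did not overlap. The other 3 lower genes of the list were Gpt2, Pycr1 and Cebpg, named after their values were seen.

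Of the 14 genes for eIF2, its kinases, phosphatase and exchange factor, 4 were lower and none higher (median -0.17). Eif2s2, the beta subunit of eIF2, was at 173, 183 and 172 CPM after tropicamide and 264, 288 and 243 CPM after saline (-0.59 ± 0.06, edgeR adjusted p = 0.000711). Eif2ak1, the haem-regulated eIF2 kinase, was at 25.1, 21.5 and 23.8 CPM after tropicamide and 31.4, 29.9 and 31.6 CPM after saline (-0.40 ± 0.07, edgeR adjusted p = 0.00659), and Eif2b4, a subunit of the exchange factor, changed by -0.24 ± 0.06. Of the 17 mitochondrial synthetases 3 were lower and none higher (median -0.08): Sars2 by -0.45 ± 0.09, Wars2 by -0.28 ± 0.06 and Tars2 by -0.21 ± 0.06. Eef1e1, a scaffold of the multisynthetase complex, was lower (-0.27 ± 0.06), while the tRNA exporter Xpot (-0.18 ± 0.06) and the scaffold Aimp1 (-0.11 ± 0.05) did not pass, so 1 of 4 genes of this list was lower.

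Of 15 endoplasmic reticulum chaperones and folding genes 1 was lower and 1 higher, with a median of 0.13. Herpud1, which acts in the removal of misfolded proteins, was lower at 48.8, 58.1 and 49.98 CPM after tropicamide and 68.8, 87.4 and 76.7 CPM after saline (-0.57 ± 0.09, edgeR adjusted p = 0.00393), and Pdia6, a disulfide isomerase, was higher (0.32 ± 0.07, edgeR adjusted p = 0.0203). Hsp90b1, an abundant chaperone, did not pass (0.25 ± 0.08). None of the 5 elongation factors passed in edgeR, and 1 of them, Eef1b2 (0.20 ± 0.08), had an unadjusted p under 0.05. For Eef2 and Eef1d the values were 0.10 ± 0.06 and 0.04 ± 0.07.

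Outside rods few members passed in the treatment contrast, in fits with far fewer cells per pool. No member passed edgeR in fibroblast-like cells (39 tested, background 0.00756% of genes), retinal pigment epithelium-like cells (21 tested, 0.115%), endothelial-like cells (33 tested, 0%), the unnamed clusters B1, led by Smoc1, Serpine2 and Angpt1 (31 tested, 0.011%), B6, led by Ptn, Edn3 and Wnt10a (29 tested, 0.0906%), and B9, led by haemoglobin and muscle genes (8 tested, 0%), and cone bipolar-like cells (16 tested, 0.0157%). DESeq2 called none in these 7 classes either. At an unadjusted p under 0.05 there were 1, 4, 5, 0, 1, 2 and 0 members in that order. In fibroblast-like cells the summed synthetases were 725, 705 and 695 CPM after tropicamide and 630.3, 679 and 638 CPM after saline, and in B6 570.3, 586 and 548 CPM after tropicamide and 508, 537 and 484 CPM after saline. The lowest tropicamide pool was above the highest saline pool in each. Whether a class differs from rods in its change was not tested.

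The 2 members of smallest p in each of these classes are given as values. In fibroblast-like cells Iars was at 16.8, 16.6 and 18.3 CPM after tropicamide and 14.4, 11.9 and 14.7 CPM after saline and Vldlr had a log2 fold change of 0.31 ± 0.12. In retinal pigment epithelium-like cells Slc3a2 was at 352, 263 and 338 CPM after tropicamide and 415, 479 and 367 CPM after saline, and Phgdh at 778, 729 and 828 CPM after tropicamide and 538, 697 and 691 CPM after saline. Endothelial-like cells had Atf3 at 741, 975 and 1027 CPM after tropicamide and 1374, 1672 and 1008 CPM after saline and Cebpb at 0.46 ± 0.17 on the log2 scale. The values for B1 were -0.22 ± 0.11 for Atf4 and -0.19 ± 0.10 for Cebpb, those for B6 0.33 ± 0.16 for Slc7a5 and -0.32 ± 0.15 for Slc3a2, those for B9 -1.77 ± 0.46 for Slc3a2 and -2.24 ± 0.71 for Atf3, and those for cone bipolar-like cells -0.34 ± 0.23 for Atf4 and -0.34 ± 0.28 for Slc3a2. Atf3 in fibroblast-like cells of tropicamide 1 stood apart, at 177 CPM against 602 to 947 CPM in the other 5 pools.

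In Müller glia-like cells, the radial glia of the retina, 2 of 22 members were lower, where 2.02% of genes passed in either direction. Atf3 was at 430.4, 593 and 317 CPM after tropicamide and 629, 754 and 956 CPM after saline (-0.80 ± 0.20), and Cebpb, an inflammatory and stress C/EBP factor, at 181, 231 and 137 CPM after tropicamide and 395, 254 and 335 CPM after saline (-0.86 ± 0.20). Every tropicamide pool lay below every saline pool for both, as in 8.78% of the genes tested in this class. These cells were shallower after tropicamide, with median depths of 1460.0 to 2552.5 UMIs, than after saline, with 4933 to 7582 UMIs. Cluster B16 held 44.6% to 47.7% of these cells after tropicamide and 22.8% to 27.6% after saline. The part of depth and cluster in these 2 differences was not tested. Neither member passed without tropicamide replicate 1, without tropicamide replicate 3 or without saline replicate 3.

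**Figure D4:**
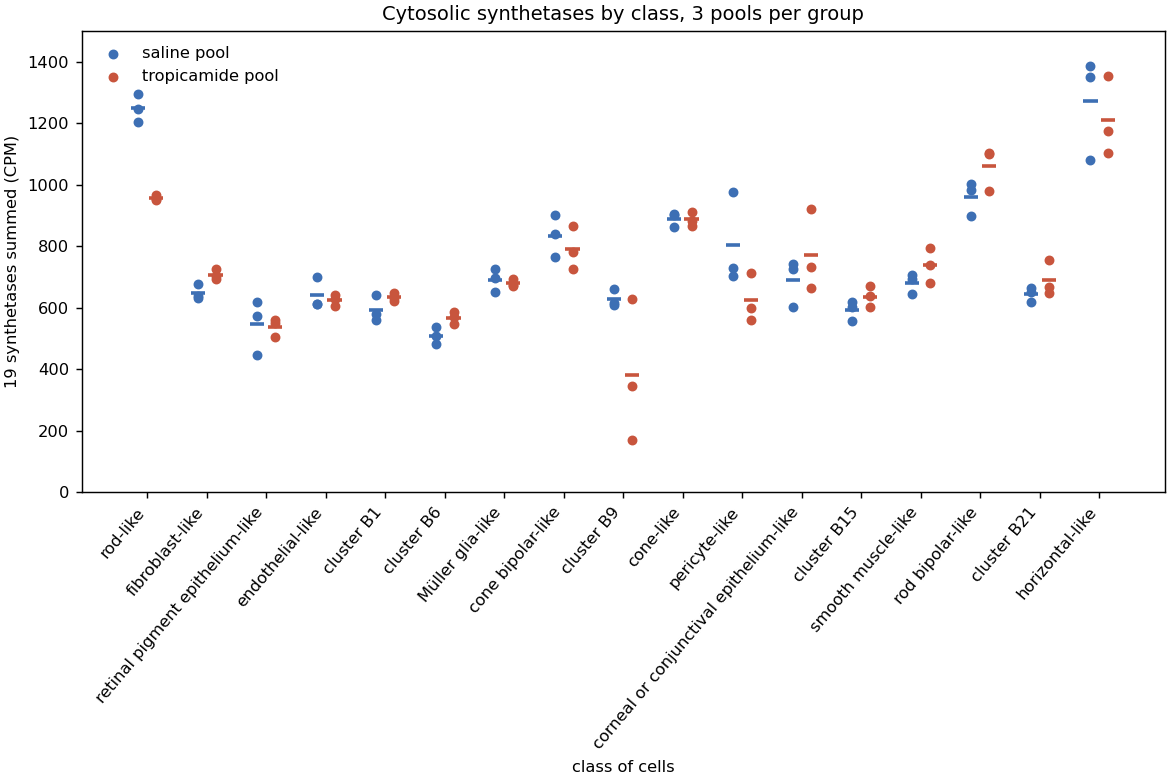
Summed level of the 19 cytosolic synthetases (CPM) in each class, with 1 point per pool and bars at the group means. Rods of the tropicamide pools (952 to 966 CPM) lie below those of the saline pools (1206 to 1295 CPM), while the points of most other classes overlap.

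Chac1 differed most in cells from outside the retina. Of its 1269 UMIs over all cells 1170 (92.2%) were in the 189 corneal or conjunctival epithelium-like cells, although the cornea had been removed in the dissection. With 12 to 45 such cells per pool, this class was below the minimum of 30 cells per library and was added after the data were seen. Chac1 was at 0.977, 5.99 and 3.45 CPM in the 3 tropicamide pools and 182, 429 and 452 CPM in the 3 saline pools, from 1, 5 and 1 UMIs and from 268, 248 and 647 UMIs. Its log2 fold change was -6.69 ± 0.57, and 0.788% of genes passed in this class in either direction. Few cells carried these counts: Chac1 was found in 6 of 45, 2 of 27 and 10 of 41 cells of the saline pools, and 244 of the 248 UMIs of saline 2 were in 1 cell. In the tropicamide pools it was found in 1 of 33, 1 of 31 and 1 of 12 cells. With cells thinned to 5000 UMIs the shares were 4 of 36, 2 of 18 and 8 of 35 after saline and 0 of 17, 1 of 22 and 0 of 9 after tropicamide. A count of 0 among 9 cells allows up to 33.3% of cells with a Chac1 UMI at this depth, and it sets no limit on the share of cells that express the gene.

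As a background share, Chac1 was found in 0.0104% to 0.0601% of rods after tropicamide and 0.0523% to 0.205% after saline, at median depths of 1998 to 2273.5 UMIs against 10712 to 31467 UMIs in the corneal cells. Of the 10 corneal markers, all detected in this class, Krt12, Krt5 and Aldh3a1 lay above in every tropicamide pool, with Krt12 at 23744 to 34970 CPM after tropicamide and 15310 to 18062 CPM after saline. The part of these marker differences and of depth in the Chac1 values was not tested. No Chac1 UMI was found in the 1672 retinal pigment epithelium-like cells. In all cells summed, Chac1 was the 1 member past the edgeR threshold (40 tested, 0.0199% of genes). It was at 0.475, 0.289 and 0.298 CPM after tropicamide and 10.02, 9.88 and 18.8 CPM after saline. DESeq2 called 9 members lower and 1 higher in all cells, where 247 of 20102 genes were lower and 322 higher. Chac1 did not pass edgeR in all cells without any 1 of the tropicamide pools or saline replicate 1.

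In the other 7 classes with 10 to 29 cells in the smallest library no member passed edgeR, and 1 had an unadjusted p under 0.05. That was Yars in cone-like cells, at 31.8, 36.2 and 26.5 CPM after tropicamide and 67.8, 53.001 and 66.98 CPM after saline (-1.05 ± 0.28), where 0.0285% of genes passed. Cones share the light-detecting machinery of rods. Every tropicamide pool lay below every saline pool for Yars, as for 4.4% of genes tested in cone-like cells. The summed synthetases of cone-like cells overlapped between the groups, at 868 to 912 CPM after tropicamide and 863 to 906 CPM after saline. In rod bipolar-like and horizontal-like cells the summed synthetases overlapped between the groups, at 979 to 1104 against 897 to 1003 CPM and 1105 to 1355 against 1080.5 to 1387 CPM. No member passed in either class.

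The level of the members in rods was then compared with that in each of the 8 other classes over the 6 libraries, with the library as a block. This comparison does not use the treatment contrast. The scaling matters here: with normalization factors (TMM) the median gene of fibroblast-like cells was at a log2 difference of -0.21 from rods and with library totals alone at -0.63, and for retinal pigment epithelium-like cells at -0.99 and -1.42. Under TMM and in either direction, the members that differed from rods numbered 31 of 39 (89% of all genes) in the fibroblast-like class, 30 of 39 (81.9% of all genes) in the retinal pigment epithelium-like class, 32 of 40 (83.6% of all genes) in the endothelial-like class and 29 of 39 (83.9% of all genes) in B1. They numbered 31 of 39 (81% of all genes) in B6, 33 of 39 (69.6% of all genes) in the Müller glia-like class, 24 of 38 (56.8% of all genes) in the cone bipolar-like class and 20 of 39 (60.9% of all genes) in B9. Below, calls are counted where they passed in the same direction under both scalings. The background is high, since 32.2% to 54.3% of all genes were lower and 22.6% to 41.4% higher in the other class under TMM alone.

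The synthetases lower and higher than in rods under both scalings are given beside shares of all genes under TMM alone. The second rule is less strict. In fibroblast-like and retinal pigment epithelium-like cells the share of synthetases that were lower was near that of all genes. Of the 19, those lower and higher numbered 9 and 4 in fibroblast-like cells (47.6% and 41.4% of all genes), 10 and 0 in retinal pigment epithelium-like cells (54.3% and 27.7%), 13 and 3 in endothelial-like cells (47.6% and 36%), 14 and 2 in B1 (48.6% and 35.3%), and 14 and 0 in B6 (46.9% and 34.1%). The counts were 12 and 1 in Müller glia-like cells (39.7% and 29.9%), 9 and 0 in B9 (38.3% and 22.6%) and 10 and 0 in the cone bipolar-like class (32.2% and 24.6%). Yars was lower in all 8 classes, with log2 differences of -0.60 ± 0.13 in fibroblast-like cells (edgeR adjusted p = 0.000565) to -1.62 ± 0.17 in retinal pigment epithelium-like cells. Iars was at 70.995 ± 20.2 CPM in rods and 11.2 ± 3.14 CPM in B6 (SD, n = 6 libraries; log2 difference -2.37 ± 0.17). Farsa, a phenylalanine subunit, was at 87.9 ± 4.78 CPM in rods and 15.4 ± 1.51 CPM in fibroblast-like cells (-2.09 ± 0.08, edgeR adjusted p = 3.43e-11). Cars was at 52.1 ± 16.4 CPM in rods, 4.27 ± 5.27 CPM in retinal pigment epithelium-like cells and 10.96 ± 5.34 CPM in Müller glia-like cells. The part of free RNA in the levels outside rods was not tested.

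Trib3 and Vldlr were higher in rods than in the classes given for them here. Cone-like cells were not compared with rods in this way. Trib3, Sesn2, Chac1 and Vldlr summed to 231 to 318 CPM in cone-like cells and 230 to 265 CPM in rods. Vldlr was at 213 ± 19.3 CPM in rods and 23.6 ± 3.75 CPM in fibroblast-like, 10.8 ± 3.68 CPM in endothelial-like and 17.6 ± 10.4 CPM in Müller glia-like cells (log2 difference -3.88 ± 0.18 in the last). Trib3 was at 24.9 ± 6.32 CPM in rods and 2.80 ± 3.48 CPM in cone bipolar-like cells (-3.39 ± 0.46). Atf4 was at 375 ± 28.3 CPM in rods, 64.4 ± 23.8 CPM in retinal pigment epithelium-like cells (-2.17 ± 0.10) and 332 ± 55.1 CPM in endothelial-like cells, where it did not differ past the threshold (-0.08 ± 0.09, edgeR adjusted p = 0.401). Aldh18a1 was lower both in the endothelial-like class (-2.11 ± 0.21) and in the cone bipolar-like class (-2.21 ± 0.37).

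Of the transcription factors, Cebpb was higher in all 8 classes, Nupr1 and Atf5 in 7 and Atf3 in 6. Cebpb was at 7.42 ± 2.13 CPM in rods and 733 ± 42.5 CPM in B6, 635 ± 51.9 CPM in B1, 513 ± 124 CPM in endothelial-like and 255 ± 92.9 CPM in Müller glia-like cells (log2 difference 5.03 ± 0.18). Nupr1 was at 11.7 ± 5.26 CPM in rods and 1172 ± 73.5 CPM in B6 (6.84 ± 0.18). Atf3 was at 47.3 ± 13.1 CPM in rods and 1128 ± 311 CPM in endothelial-like cells (4.69 ± 0.11), but it was lower in retinal pigment epithelium-like cells (-1.53 ± 0.20). Atf5 was at 111 ± 11.2 CPM in B1 and 4.34 ± 0.667 CPM in rods. Ddit3, in contrast, was lower in 5 of the 8 classes and higher in Müller glia-like cells (0.35 ± 0.13).

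Transporters and serine enzymes were also higher in several classes. Slc7a5 was at 541 ± 119 CPM in endothelial-like cells, 334 ± 61.5 CPM in B6 and 159 ± 27.05 CPM in retinal pigment epithelium-like cells, against 18.3 ± 1.63 CPM in rods (log2 difference 4.97 ± 0.11 in endothelial-like cells). Slc7a11 was at 26.6 ± 5.60 CPM in fibroblast-like cells and 0.626 ± 0.216 CPM in rods (5.79 ± 0.18). Phgdh was at 709.9 ± 98.6 CPM in retinal pigment epithelium-like cells and 1.52 ± 0.971 CPM in rods (9.24 ± 0.11), and Psat1, the next enzyme of serine synthesis, at 25.6 ± 10.998 CPM and 65.1 ± 9.39 CPM in retinal pigment epithelium-like and Müller glia-like cells and 3.42 ± 1.08 CPM in rods (4.15 ± 0.23 in Müller glia-like cells).

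**Figure D5:**
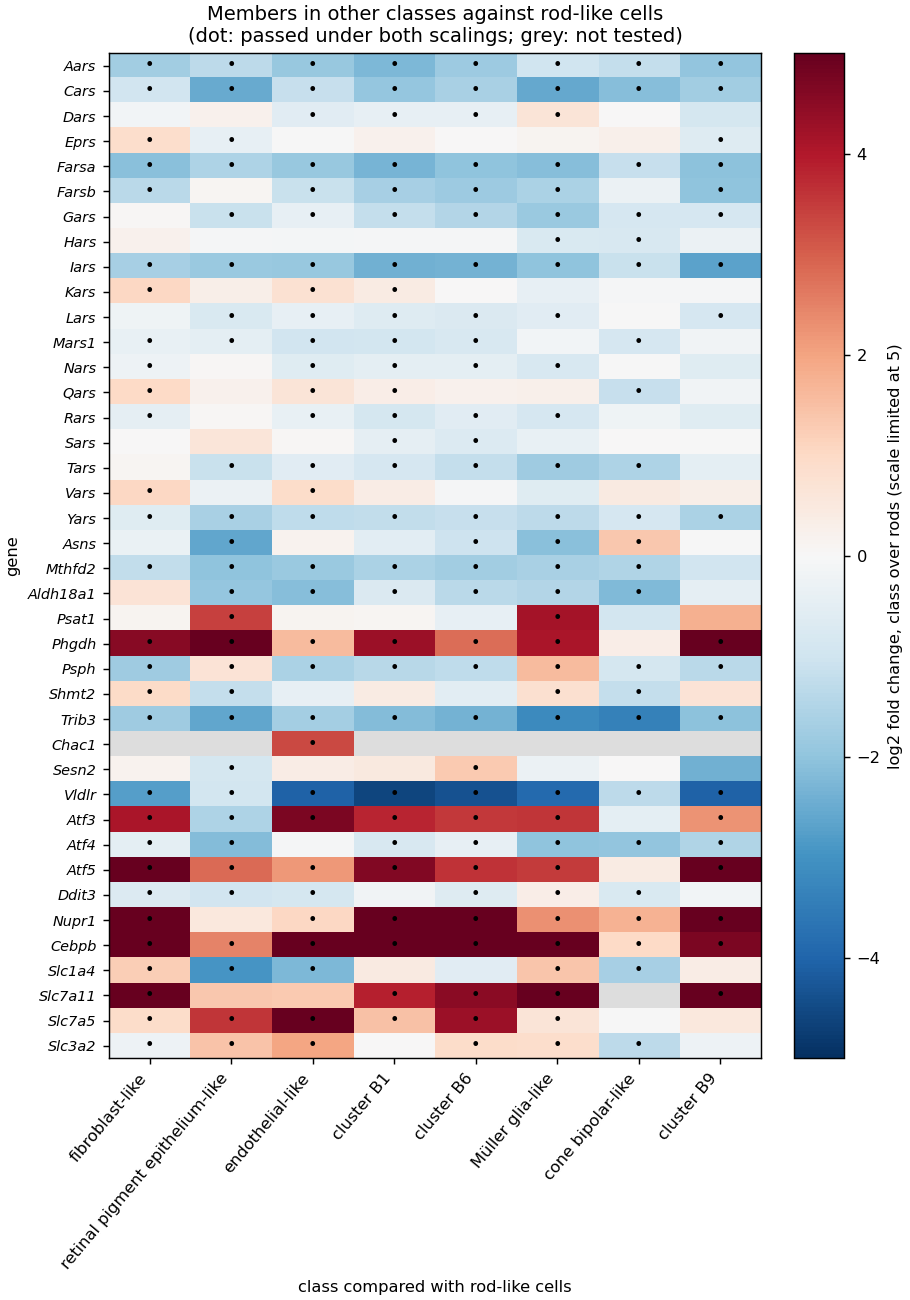
Log2 fold change of 40 members in each of 8 classes over rod-like cells (colour, limited at 5), with a dot where the edgeR threshold was passed in the same direction under both scalings and grey where a gene was not tested. Aars, Cars, Farsa, Iars and Yars carry a dot on the lower side in all 8 classes, and Cebpb on the higher side in all 8.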

How the data were processed

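UMI counts per gene and barcode were used as deposited by the authors. The submitters' processing notes name Cell Ranger 8.0.1, STAR and GRCm39. The extraction text in the labels describes bone and was not used. The members and the gene lists were chosen with earlier results of these data known. A barcode needed 500 UMIs, 300 genes and a mitochondrial share of 20% or less, and 5922 simulated-neighbour doublets were removed. Cells were clustered (scanpy 1.11.5, leidenalg 0.10.2) without the members and named from marker lists; a lowest naming score of 1.25 was set after the clusters were seen. Free RNA was not removed. Counts were summed per library and class and tested with edgeR 4.0.16 (R 4.3.3; quasi-likelihood test, TMM, filterByExpr, Benjamini-Hochberg over all genes, 0.05) in classes with at least 30 cells per library. Class comparisons kept the library as a block. No p is given for a member between treatments. The procedure was tested on simulated data, where it found 66% of genes changed 1.5-fold and 86% of those changed 2-fold in rods. Of such changes it found 18% and 66.7% in fibroblast-like cells and 43.75% and 63.0% in retinal pigment epithelium-like cells. It found 12.2% and 54.3% in Müller glia-like cells and 0% and 19.6% in corneal or conjunctival epithelium-like cells. Genes without a change made up 10.3%, 9.18%, 4%, 3.95% and 12.5% of the calls in that order.

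In rods, members past the threshold with a mean of at least 5 CPM were named, up to 16 by size of change, and always Atf4, Ddit3, Asns, Trib3 and Chac1. In other classes up to 4 that passed, or the 2 of smallest p, were named. Against rods the 3 highest and 3 lowest were eligible, with further members chosen after their values were seen, and of each other list up to 3 of smallest p. Alternatives were DESeq2 1.42.0, its size factors, no count filter, a replicate block, each library left out, a stricter cell filter, no doublet removal, the largest rod cluster and rods matched on UMIs. The split at 1% mitochondrial UMIs, the classes with 10 to 29 cells and scaling by library totals were chosen after seeing the data. Intervals and floors cover counting error only.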

Additional observations from a re-analysis of the deposited data

How the results depend on the processing

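None of the 17 named genes recomputed changed direction under the alternatives run. Their calls were lost in 21 of these fits and gained in 1, and counts of members shifted as given below. Of the members that did not pass in rods, Vars, Shmt2 and Slc7a11 were above 0 over all rods and had log2 ratios of -0.18, -0.13 and -0.59 in cluster A0, from 268, 252 and 15 UMIs. In rods 5 members were higher without the low-count filter (1290 of 26179 genes). In rods with at least 1% mitochondrial UMIs 0 were higher (162 of 12708 genes). With 1 library left out, for which fewer samples were tested, 2 to 5 were higher, where 236 to 1369 genes were. Those lower then numbered 12 to 18, where 0.927% to 6.72% of all genes were lower. Without the low-count filter 2 members passed in endothelial-like cells, 1 in cone bipolar-like cells and 2 in B9, where 0 had passed. At this setting 237 of 21116, 70 of 19213 and 152 of 15424 genes passed in these classes, against 0, 1 and 0 with the filter. Leaving out saline replicate 2 gave 1 member in cone bipolar-like cells (2 of 6968 genes) and 1 in B9 (64 of 2932 genes). The range over the libraries left out was 0 to 1 in each. In Müller glia-like cells 1 member passed with the stricter cell filter (73 of 6470 genes) and 0 without doublet removal (98 of 7789 genes). With 1 library left out 0 to 2 passed, where 14 to 170 genes did. In all cells summed DESeq2 called 10 members (569 of 20102 genes). Leaving out 1 library gave 0 to 1 in edgeR, where 1 to 33 genes passed. Against B9, 13 members differed without the library block. Of the other genes of the pathway 8 were lower in the largest rod cluster (2.46% of all genes). In rods with at least 1% mitochondrial UMIs 5 were lower (1.17%). With 1 library left out 5 to 17 were lower, where 0.927% to 6.72% of all genes were. The cause of these shifts was not tested.

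Pools of the same number did not deviate together in rods (r = -0.03, -0.09 and -0.27), and the main fits did not pair them. This check, with 3 pools per group, cannot exclude that pools of a number shared a day or litter. With a replicate block 18 members were lower and 4 higher in rods, where 563 of 16909 genes (3.33%) were lower and 717 higher. At this setting 13 other genes of the pathway were lower in rods. In all cells summed 0 members passed (3 of 20613 genes).

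The 8 other classes held 35 to 579 cells per pool, against 6655 to 9615 rods.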
